A study of Mus musculus with 27 samples.

Results

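Organoids grown from stomach corpus cells of the Mist1 lineage and labelled Gpx4 KO were compared at passage 5 with organoids of the same lineage without a Gpx4 knockout, labelled WT. The comparison rests on 6 of the 27 samples of the series, the 3 knockout and the 3 wild-type libraries of that passage, chosen by their labels. RNA had been sequenced from 21 organoid libraries in 7 groups, of which knockout and wild-type organoids at passages 10 and 15 and Mist1- organoids at passage 5 are used here for context, and the 6 libraries of sorted cells from a diet experiment have no columns in the count table.

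The knockout organoids came from Gpx4F/F;Mist1Cre/ERT2;RFPLSL mice, whose Gpx4 alleles carry recombination sites. The wild-type organoids came from Mist1Cre/ERT2;RFPLSL mice. Both groups thus carried a tamoxifen-inducible Cre at the Mist1 gene and a red fluorescent reporter that Cre switches on. For knockout and wild-type organoids, cells carrying the reporter were isolated by flow sorting from stomachs of adult mice and embedded in Matrigel. All groups were kept in proliferating medium. Mist1- is the label of the organoids used for context, whose genotype and source cells are not described here. The label is not read as loss of the Mist1 gene, whose transcript was found in them at 10.4 CPM. The labels do not say when Cre was induced in the Gpx4 allele, how many mice or founding cultures stand behind a group, or whether replicate libraries were made from separate cultures. Genotype and organoid line therefore cannot be told apart, and p-values measure only the spread between libraries.

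GPX4 is a selenoenzyme that uses glutathione to reduce lipid hydroperoxides within membranes. Without it, iron-driven peroxidation of polyunsaturated phospholipids can kill a cell by ferroptosis. Cells resist this by importing cystine for glutathione synthesis, through the transcription factor NRF2, and through enzymes that keep coenzyme Q10 and other radical-trapping lipids reduced. Mist1, the product of Bhlha15, governs the secretory apparatus of exocrine cells and marks zymogen-secreting chief cells in the stomach corpus, whose other lineages are mucous pit and neck cells, acid-secreting parietal cells and isthmus progenitors.

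The libraries held 17677671, 18732693 and 16300122 counts in knockout and 15412448, 14728099 and 15244849 in wild type. Levels are counts per 1e6 of the library total scaled by the trimmed mean of M-values (CPM), and they compare a gene between libraries, not genes with each other. Means are given ± SD over the 3 libraries of knockout (KO) and of wild type (WT). Log2 fold changes are knockout over wild type ± SE. Genes said to rise or fall had an adjusted p below 0.05 in edgeR's quasi-likelihood test over the 13882 genes tested. At passage 5 the libraries of the groups did not overlap for any gene given with a p unless stated. This was not required at later passages. Levels of Mist1- organoids and of later passages are scaled over all 21 libraries, which moves passage 5 values slightly.

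The libraries carried markers of their labelled tissue, gastric epithelium. Cldn18, the stomach claudin, averaged 1330.3 ± 14 CPM in KO and 1475 ± 11 CPM in WT (SD, n = 3 each). Summed over the marker list, fibroblast genes reached 0.18 to 0.52 CPM in knockout libraries and 0.203 to 0.334 CPM in wild-type libraries, and Col3a1, Dcn and Lum had 0 counts in both. Endothelial genes summed to 0.468 to 1.08 CPM in knockout and 0.14 to 1.14 CPM in wild type, with Emcn at 0 counts. The 8 immune genes summed to 9.82 to 10.6 CPM in knockout and 13.7 to 15.1 CPM in wild type, to which the macrophage marker Cd68 contributed 8.28 ± 0.23 CPM in KO and 11.1 ± 0.15 CPM in WT. Of the chief cell products, Cblif, Pga5, Lipf, Chia1 and Cpb1 had 0 counts in all 6 libraries. Y-linked Ddx3y, Eif2s3y, Kdm5d and Uty were present in all 6 libraries, none of them different by 1.2-fold, and Xist had 4 counts in all in knockout and 2 in wild type.

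The targeted gene fell only in part. Gpx4 had 101, 98.1 and 97.7 CPM in knockout libraries, against 129.6, 122 and 132 CPM in wild-type libraries. The knockout libraries all lay below the wild-type libraries, with a mean 0.772 times that of wild type (log2 -0.37 ± 0.036, adjusted p = 3.98e-17). Mist1- organoids had 115 CPM. The counts are per gene, so transcripts that lack the floxed exons and intact ones cannot be told apart. Bhlha15 went the other way and had 10.8, 9.77 and 9.8 CPM in knockout libraries, against 4.94, 6.14 and 5.2 CPM in wild-type libraries, with log2 0.90 ± 0.13, adjusted p = 4.20e-09. In Mist1- organoids Bhlha15 stood at 10.4 CPM, close to the knockout level. Knockout and wild-type organoids carry Cre at this gene, and counts per gene do not tell which allele gave the reads.

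Many genes differed, most of them slightly. Of 13882 genes tested, 7035 (50.7%) were called, 3465 higher (25%) and 3570 lower (25.7%) in knockout. Every count of list members called below is to be read beside these shares. A list near them was called no more often than genes at large. The median absolute log2 fold change among called genes was 0.33. A change of at least 2-fold was called for 907 genes (6.53%), 322 higher (2.32%) and 585 lower (4.21%), so large losses outnumbered large gains. In 7762 genes (55.9%) the libraries of the groups did not overlap. Scaling by library totals alone gave 4861 higher and 2749 lower, so that 63.9% of calls were higher in place of 49.3%, and the median log2 fold change of all genes was 0.083 in place of 0.0056. Replicates varied little, with a biological coefficient of variation of 2.4%.

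Of 6 glutathione peroxidases tested, Gpx4 included, 1 rose and 4 fell, with a median log2 fold change of -0.40, beside 0.0056 over all genes. Of the 5 besides Gpx4, 1 rose and 3 fell. Gpx2, the enzyme of gut epithelium, was the family's most abundant transcript by FPKM in wild type and had 635, 637 and 637 CPM in knockout libraries, against 1261, 1221 and 1235 CPM in wild-type libraries. Its libraries were far apart (log2 -0.96 ± 0.017, adjusted p = 1.59e-85). Gpx1, the ubiquitous cytosolic enzyme, averaged 74.2 ± 1.7 CPM in KO and 92.2 ± 1.5 CPM in WT (log2 -0.31 ± 0.041, adjusted p = 4.15e-11; adjusted p = 0.1 with all 21 libraries in the fit). Gpx7, an enzyme of the endoplasmic reticulum, was scarce and fell, at 2.13 ± 0.19 CPM in KO and 3.66 ± 0.41 CPM in WT. Gpx8, its membrane-bound relative, was the member that rose, at 2.03 ± 0.29 CPM in KO and 0.795 ± 0.16 CPM in WT (log2 1.34 ± 0.33, adjusted p = 2.58e-04). Gpx3, the secreted enzyme, had 2.36 ± 0.30 CPM in KO and 3.16 ± 0.83 CPM in WT and was not called. Gpx5 and Gpx6 had 0 counts.

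Selenoprotein transcripts were split. Of 20 tested, 8 rose and 6 fell (median 0.038), beside 25% and 25.7% of all genes. Besides Gpx2 and Gpx4, Txnrd1, the cytosolic thioredoxin reductase, fell, at 561 ± 4.4 CPM in KO and 667 ± 11 CPM in WT. Selenos, a part of the machinery that removes misfolded proteins from the endoplasmic reticulum, rose (102 ± 2.8 CPM in KO and 75 ± 0.74 CPM in WT, log2 0.44 ± 0.040, adjusted p = 1.90e-18). Of 8 genes for making and placing selenocysteine, 3 rose and 1 fell. Sephs1, a selenophosphate synthetase homologue, rose (67.6 ± 5.0 CPM in KO and 57.2 ± 2.1 CPM in WT), and the selenocysteine lyase Scly fell (15.1 ± 1.1 CPM in KO and 20.1 ± 0.21 CPM in WT).

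Genes known to modulate ferroptosis apart from GPX4 changed in both directions. Of 13 tested, 4 rose and 3 fell (median 0.019), shares near the 25% and 25.7% of all genes that rose and fell. Aifm2, which encodes the coenzyme Q10 reductase FSP1, had 6.79 ± 0.23 CPM in KO and 8.47 ± 0.68 CPM in WT (log2 -0.32 ± 0.13, adjusted p = 0.0372; adjusted p = 0.0664 with all 21 libraries). The call was also lost with library totals (adjusted p = 0.12), with no low-count filter (adjusted p = 0.0813), in DESeq2 (adjusted p = 0.0955), in limma on log2(FPKM + 1) and log2(FPKM + 0.1) (adjusted p = 0.0874 and 0.0937), and without knockout library 1, knockout library 2, knockout library 3, wild-type library 1 or wild-type library 3, each in turn (adjusted p = 0.0691, 0.0541, 0.0957, 0.14 and 0.0829). Coq2, an enzyme of coenzyme Q synthesis, had 71.9 ± 3.0 CPM in KO and 66.2 ± 1.1 CPM in WT. Gch1, which starts tetrahydrobiopterin synthesis, had 67.6 ± 4.2 CPM in KO and 61 ± 1.4 CPM in WT. Their log2 fold changes were 0.12 and 0.15, and both calls were lost with all 21 libraries (adjusted p = 0.268 and 0.18). Coq2 was also lost in DESeq2 (adjusted p = 0.0738) and without knockout library 1, knockout library 2 or wild-type library 1, each in turn (adjusted p = 0.111, 0.0548 and 0.0762), and Gch1 without knockout library 2 (adjusted p = 0.05), just past the threshold. The mitochondrial enzyme Dhodh was not called, at 17.3 ± 2.6 CPM in KO and 16.3 ± 1.5 CPM in WT.

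The lysophospholipid acyltransferases Mboat1 and Mboat2, which put monounsaturated fatty acids into phospholipids, moved apart. Mboat1 had 348, 352 and 350.2 CPM in knockout libraries, against 464, 465 and 462 CPM in wild-type libraries, with log2 -0.40 ± 0.021, adjusted p = 1.29e-36. Mboat2 had 14.1, 15.7 and 14.4 CPM in knockout libraries, against 10.4, 8.93 and 10.5 CPM in wild-type libraries, with log2 0.57 ± 0.11, adjusted p = 2.08e-06. Neither gene's libraries overlapped between the groups. Dhcr7, whose enzyme consumes the radical-trapping sterol 7-dehydrocholesterol, rose (112 ± 2.0 CPM in KO and 92.3 ± 1.6 CPM in WT, log2 0.27 ± 0.038, adjusted p = 2.62e-10). Nupr1, a stress-induced regulator, fell (6.92 ± 1.0 CPM in KO and 10.3 ± 0.33 CPM in WT), and Prdx6, Spr, Qdpr, Vkorc1l1 and Hspb1 were not called, with log2 fold changes between -0.36 and 0.12.

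Cystine uptake and glutathione synthesis genes were lower or not called. Of 11 tested, 0 rose and 7 fell (median -0.17). Gclc, the catalytic subunit of the rate-limiting glutamate-cysteine ligase, had 502, 496 and 479.9 CPM in knockout libraries, against 746, 773 and 766 CPM in wild-type libraries. No knockout library reached a wild-type one (log2 -0.63 ± 0.019, adjusted p = 1.55e-59). Its modifier subunit Gclm averaged 129 ± 3.6 CPM in KO and 186 ± 2.6 CPM in WT (log2 -0.53 ± 0.031, adjusted p = 3.39e-32), and glutathione synthetase, Gss, 213 ± 4.3 CPM in KO and 255 ± 7.9 CPM in WT. Slc7a11, the cystine transporter, had 481, 464 and 479 CPM in knockout libraries, against 609.8, 616 and 615 CPM in wild-type libraries. Its log2 fold change was -0.37 ± 0.020, adjusted p = 5.73e-36, with an adjusted p of 0.0726 when all 21 libraries entered the fit. Its partner chain Slc3a2 had 136 ± 1.6 CPM in KO and 145 ± 4.3 CPM in WT (log2 -0.089, adjusted p = 0.0175; adjusted p = 0.34 with all 21 libraries). With library totals its log2 fold change was -0.011 (adjusted p = 0.799), and in limma on log2(FPKM + 1) and log2(FPKM + 0.1) it was -0.01 and -0.011 (adjusted p = 0.783 and 0.784). The call was also lost in DESeq2 (adjusted p = 0.0568), with no low-count filter (adjusted p = 0.0658) and without knockout library 1, knockout library 2 or wild-type library 1, each in turn (adjusted p = 0.0592, 0.068 and 0.109). The transsulfuration genes Cth (13.2 ± 2.0 CPM in KO and 11.3 ± 1.1 CPM in WT) and Cbs (3.33 ± 0.46 CPM in KO and 2.42 ± 0.098 CPM in WT), and Chac1, a glutathione-degrading enzyme (3.25 ± 0.49 CPM in KO and 3.34 ± 0.65 CPM in WT), were not called.

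**Figure D1:**
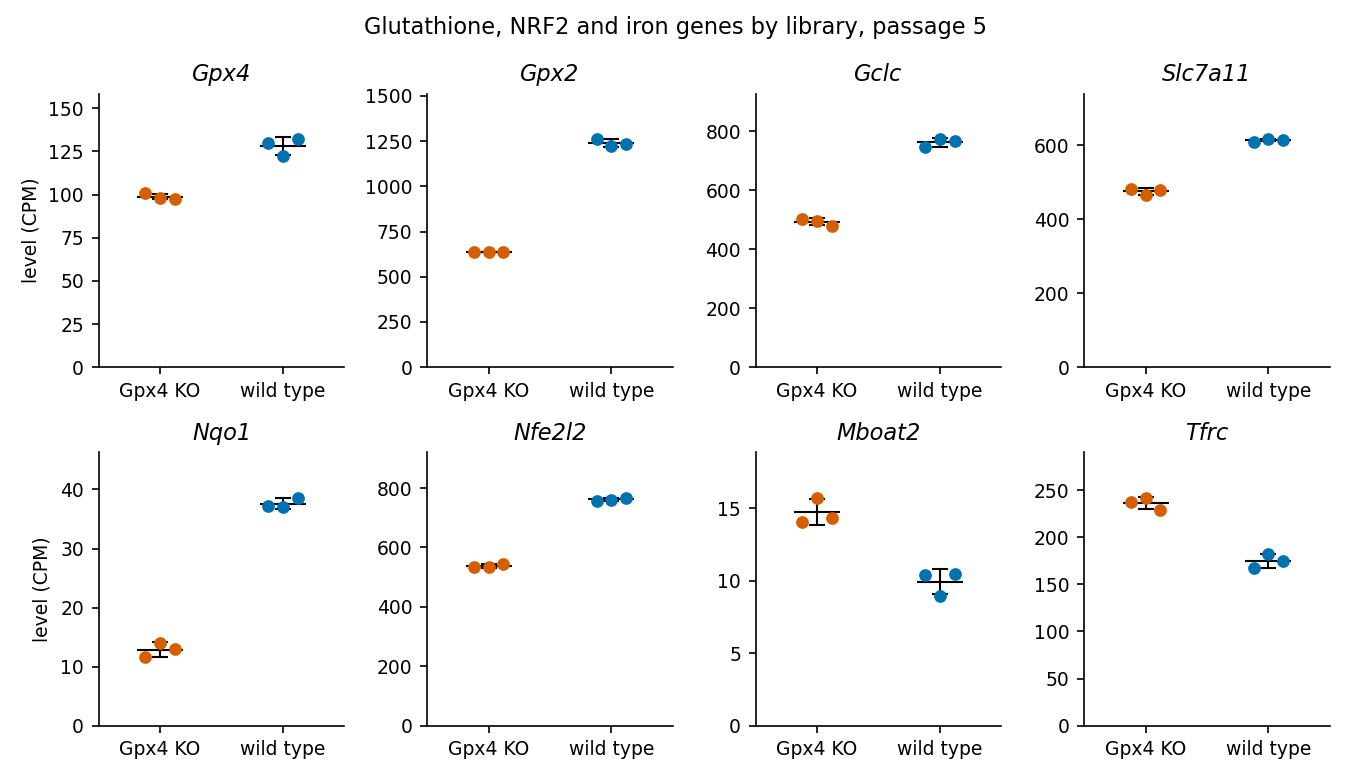
Levels in CPM of 8 genes in each knockout (left) and wild-type (right) library at passage 5, each axis starting at 0, with the mean and SD of 3 libraries in black. Gpx4, Gpx2, Gclc, Slc7a11, Nqo1 and Nfe2l2 are lower in every knockout library, and Mboat2 and the transferrin receptor Tfrc are higher.

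Among 16 phospholipid remodelling genes, which set how many peroxidisable fatty acids membranes hold, 4 rose and 6 fell. Fads1, the delta-5 desaturase of polyunsaturated fatty acid synthesis, had 59.9, 62.3 and 58.3 CPM in knockout libraries, against 32.9, 32 and 31.5 CPM in wild-type libraries. It rose (log2 0.91 ± 0.055, adjusted p = 3.13e-31), as did the delta-6 desaturase Fads2 (253 ± 2.9 CPM in KO and 196 ± 3.6 CPM in WT). Far1, whose enzyme makes fatty alcohols for ether lipid synthesis, had 532, 531 and 531 CPM in knockout libraries, against 867, 877 and 842 CPM in wild-type libraries. It fell (log2 -0.70 ± 0.019, adjusted p = 2.28e-66). Scd1, a desaturase that makes monounsaturated fatty acids, fell, at 177 ± 7.9 CPM in KO and 217 ± 5.5 CPM in WT. Of 7 eicosanoid enzymes tested, 2 rose and 4 fell, with Ptgs2, the inducible cyclooxygenase often used as a ferroptosis marker, at 19.4, 20.1 and 20.0 CPM in knockout libraries, against 10.1, 9.7 and 9.18 CPM in wild-type libraries (log2 1.04 ± 0.098, adjusted p = 9.95e-18), and Hpgd, which inactivates prostaglandins, at 2.46 ± 0.38 CPM in KO and 5.4 ± 0.70 CPM in WT.

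Iron genes moved in both directions. Of 14 tested, 7 rose and 6 fell (median 0.012), where 25% and 25.7% of all genes rose and fell. Among those that rose were the transferrin receptor Tfrc (236 ± 6.5 CPM in KO and 175 ± 7.7 CPM in WT, log2 0.44 ± 0.028, adjusted p = 8.27e-29), the metalloreductase Steap4 (58.5 ± 2.4 CPM in KO and 20.5 ± 0.85 CPM in WT, log2 1.52 ± 0.062, adjusted p = 3.20e-47) and the metal ion transporter Slc39a8 (46.9 ± 4.1 CPM in KO and 22.5 ± 1.6 CPM in WT, log2 1.06 ± 0.066, adjusted p = 2.49e-30). Ncoa4, the receptor that delivers ferritin to lysosomes, had 164, 165 and 161 CPM in knockout libraries, against 306, 305 and 299 CPM in wild-type libraries. It fell with no overlap (log2 -0.89 ± 0.026, adjusted p = 8.11e-62).

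NRF2 targets fell together. NRF2, encoded by Nfe2l2, binds antioxidant response elements with small MAF proteins and drives detoxifying and glutathione genes. Of 26 targets tested, 1 rose and 22 fell (median -0.37), where 25% and 25.7% of all genes rose and fell. Gene lists can share members. Gclc and Gclm are counted both here and among the glutathione synthesis genes, so the counts of such lists are not independent. Nqo1, a quinone reductase and the classical target, had 11.5, 14 and 13 CPM in knockout libraries, against 37.1, 37 and 38.6 CPM in wild-type libraries. It fell with no overlap between the groups (log2 -1.54 ± 0.078, adjusted p = 2.78e-38). Ugdh, which makes glucuronic acid donors, had 708, 706 and 720.3 CPM in knockout libraries, against 1329, 1373 and 1327 CPM in wild-type libraries, with log2 -0.92 ± 0.017, adjusted p = 9.29e-84. Akr1b8, an aldo-keto reductase (292 ± 5.8 CPM in KO and 488 ± 9.0 CPM in WT), Gsta4, a transferase that conjugates the lipid peroxidation product 4-hydroxynonenal (1968 ± 54 CPM in KO and 3036 ± 14 CPM in WT), and Me1, an NADPH-producing malic enzyme (235 ± 7.1 CPM in KO and 372 ± 4.0 CPM in WT), fell by log2 0.74, 0.63 and 0.66. Nfe2l2 itself had 533, 534 and 545 CPM in knockout libraries, against 757, 760.4 and 768 CPM in wild-type libraries (log2 -0.50 ± 0.019, adjusted p = 5.79e-51), its partner Mafg fell (81.9 ± 2.9 CPM in KO and 111 ± 1.0 CPM in WT), and its competitor Bach1 had 69.1 ± 3.7 CPM in KO and 55.1 ± 0.91 CPM in WT (log2 0.33, adjusted p = 1.70e-09; adjusted p = 0.0504 with all 21 libraries).

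The promoters of 8 of the 20 NRF2 target genes matched in RefSeq held the antioxidant response element letters TGACNNNGC on either strand between 250 bases before and 50 after the start (40%), as did 14% of 27025 genes. The 250 bases before the start of Ugdh and Gclm, among the targets with the smallest adjusted p that hold it, are shown with each match in capitals. They are RefSeq sequences in build GRCm38.p6, Ugdh at chr5:65435843-65436092, minus strand and Gclm at chr3:122245307-122245556, plus strand, and a match is not a tested binding site.
Ugdh: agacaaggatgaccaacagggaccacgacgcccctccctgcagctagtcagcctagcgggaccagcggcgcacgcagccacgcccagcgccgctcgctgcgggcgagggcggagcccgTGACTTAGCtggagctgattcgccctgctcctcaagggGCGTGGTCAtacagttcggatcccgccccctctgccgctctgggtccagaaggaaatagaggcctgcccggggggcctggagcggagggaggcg
Gclm: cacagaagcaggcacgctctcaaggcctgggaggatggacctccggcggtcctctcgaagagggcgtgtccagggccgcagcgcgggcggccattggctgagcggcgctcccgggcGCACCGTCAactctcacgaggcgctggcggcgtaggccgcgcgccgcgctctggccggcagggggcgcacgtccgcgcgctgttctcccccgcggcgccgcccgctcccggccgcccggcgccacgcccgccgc

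Enzymes that conjugate or reduce electrophiles were mostly lower. Of 21 glutathione S-transferases, 3 rose and 13 fell (median -0.42). Gsta1 had 349 ± 12 CPM in KO and 669 ± 28 CPM in WT (log2 -0.94 ± 0.025, adjusted p = 1.21e-28), Gsta2 18.1 ± 2.3 CPM in KO and 40.9 ± 2.3 CPM in WT (log2 -1.18 ± 0.072, adjusted p = 3.69e-31), and both belong to a family of near-identical copies whose reads can be split between genes. Gsto1 is among the largest losses, at 4588 ± 67 CPM in KO and 8586 ± 39.5 CPM in WT. Of 18 aldehyde and carbonyl enzymes, 2 rose and 14 fell. Adh7, the stomach's retinol and ethanol dehydrogenase, had 34.3, 32.6 and 29.1 CPM in knockout libraries, against 108, 105 and 112 CPM in wild-type libraries and fell by log2 1.76. Aldh1a1, a retinaldehyde dehydrogenase, averaged 71.1 ± 2.7 CPM in KO and 161 ± 1.9 CPM in WT (log2 -1.18 ± 0.037, adjusted p = 2.39e-59), and the carbonyl reductase Cbr1 109.9 ± 3.6 CPM in KO and 175 ± 4.9 CPM in WT. Among 17 peroxiredoxin, thioredoxin and superoxide genes there was no common direction, as 7 rose and 7 fell, with thioredoxin Txn1 at 313 ± 7.7 CPM in KO and 240.1 ± 8.7 CPM in WT and catalase, Cat, at 72.6 ± 4.7 CPM in KO and 90.8 ± 1.4 CPM in WT.

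Pit cell genes were lower throughout. These encode the gastrokines, mucin and trefoil peptide of the stomach surface. Of 8 tested, 0 rose and 8 fell (median -1.50), and 7 fell at least 2-fold, where 4.21% of all genes did. Gkn1 had 155, 159 and 159.6 CPM in knockout libraries, against 946, 905 and 909.6 CPM in wild-type libraries, and the groups were far apart (log2 -2.54 ± 0.022, adjusted p = 5.20e-123). Muc5ac, the surface mucin, had 54.8, 56.3 and 58.7 CPM in knockout libraries, against 162, 163 and 160.2 CPM in wild-type libraries (log2 -1.51 ± 0.038, adjusted p = 3.91e-69). The glycosylphosphatidylinositol-anchored Psca averaged 47.7 ± 0.79 CPM in KO and 244 ± 5.4 CPM in WT. In Mist1- organoids the same genes were lower still, with Gkn1 at 30.5, Muc5ac at 11 and Psca at 14 CPM. In these bulk libraries, fewer cells of a type and less RNA per cell cannot be told apart.

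Neck and metaplasia genes were divided. Of 9 tested, 4 rose and 5 fell. Clu, a secreted chaperone of regenerating epithelium, was the largest loss in CPM among called protein-coding genes and had 9393, 9444 and 9604 CPM in knockout libraries, against 16243, 16193 and 15955 CPM in wild-type libraries (log2 -0.77 ± 0.012, adjusted p = 1.64e-92). Sox9, a progenitor and neck regulator, averaged 28.2 ± 0.59 CPM in KO and 90.6 ± 4.8 CPM in WT, and the trefoil peptide gene Tff2 went up, at 95.8 ± 0.61 CPM in KO and 24.6 ± 1.9 CPM in WT (log2 1.96 ± 0.053, adjusted p = 2.73e-66). Chief cell genes were few, since 5 of 10 had 0 counts, and of 5 tested 3 rose and 2 fell. Xbp1, a secretory regulator, had 422, 409 and 413 CPM in knockout libraries, against 291, 295 and 287 CPM in wild-type libraries (log2 0.51 ± 0.023, adjusted p = 1.07e-43), and the zymogen gene Pgc had 9.62, 10.1 and 8.05 CPM in knockout libraries, against 30.2, 31.7 and 27.4 CPM in wild-type libraries (log2 -1.68 ± 0.091, adjusted p = 1.33e-35). Rab3d, a secretory granule GTPase, had 188 ± 1.0 CPM in KO and 203 ± 7.3 CPM in WT, and its call (adjusted p = 9.59e-04) was lost with all 21 libraries (adjusted p = 0.108). Its log2 fold change was -0.10, and with library totals it was -0.027 (adjusted p = 0.427). In limma on log2(FPKM + 1) and log2(FPKM + 0.1) it was -0.027 and -0.027 (adjusted p = 0.488 and 0.486). Of 5 parietal cell genes tested, 2 rose and 2 fell. The proton pump gene Atp4a had 1.89 ± 0.25 CPM in KO and 0.841 ± 0.19 CPM in WT, and Atp4b 1 count in knockout and 0 in wild type. The ion exchanger Slc9a4 had 192 ± 1.2 CPM in KO and 496 ± 5.0 CPM in WT (log2 -1.37 ± 0.023, adjusted p = 5.95e-89), and the potassium channel Kcnq1 65.3 ± 2.1 CPM in KO and 110.4 ± 2.3 CPM in WT (log2 -0.76 ± 0.041, adjusted p = 6.04e-36).

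Stem cell genes moved apart as well. Of 12 stem and isthmus genes tested, 5 rose and 4 fell, where 25% and 25.7% of all genes did. Olfm4, a secreted stem cell glycoprotein, had 144, 148 and 140.4 CPM in knockout libraries, against 24.9, 21.2 and 23 CPM in wild-type libraries, log2 2.64 ± 0.049, adjusted p = 1.06e-84. Lgr5, the R-spondin receptor of stem cells, had 47.2, 46.5 and 42.9 CPM in knockout libraries, against 17.7, 22 and 19.1 CPM in wild-type libraries, log2 1.22 ± 0.068, adjusted p = 2.47e-34. Axin2, a Wnt feedback gene, had 11.5, 13.8 and 14.6 CPM in knockout libraries, against 27, 25 and 27.8 CPM in wild-type libraries, log2 -1.0 ± 0.086, adjusted p = 2.86e-20. At passage 5 the knockout was above wild type in every library for Olfm4 and Lgr5 and below it for Axin2. At passage 10 Olfm4 was lower in knockout, at 28.6 CPM in KO and 35.3 CPM in WT (log2 -0.29, adjusted p = 1.21e-04). At passage 15 it had 0.704 CPM in KO and 1.08 CPM in WT and was not called (adjusted p = 0.204). Mist1- organoids had 2.39 CPM of Olfm4 and 62.7 CPM of Lgr5. Of 8 intestinal genes, 2 rose and 4 fell, with Lgals4, a galectin of differentiated gut epithelium, at 216 ± 3.7 CPM in KO and 459.8 ± 3.2 CPM in WT and Krt20, a keratin of surface cells, at 27.2 ± 1.9 CPM in KO and 78.6 ± 4.6 CPM in WT. Of 9 keratins tested, 0 rose and 8 fell (median -0.40), Krt20 by the most. Krt19 had 1733 ± 47 CPM in KO and 2936 ± 26 CPM in WT and Krt7 1309.7 ± 13 CPM in KO and 2185 ± 19.9 CPM in WT. Krt18 had 1377 ± 15 CPM in KO and 1561 ± 17 CPM in WT, and its call was lost with all 21 libraries (adjusted p = 0.243).

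**Figure D2:**
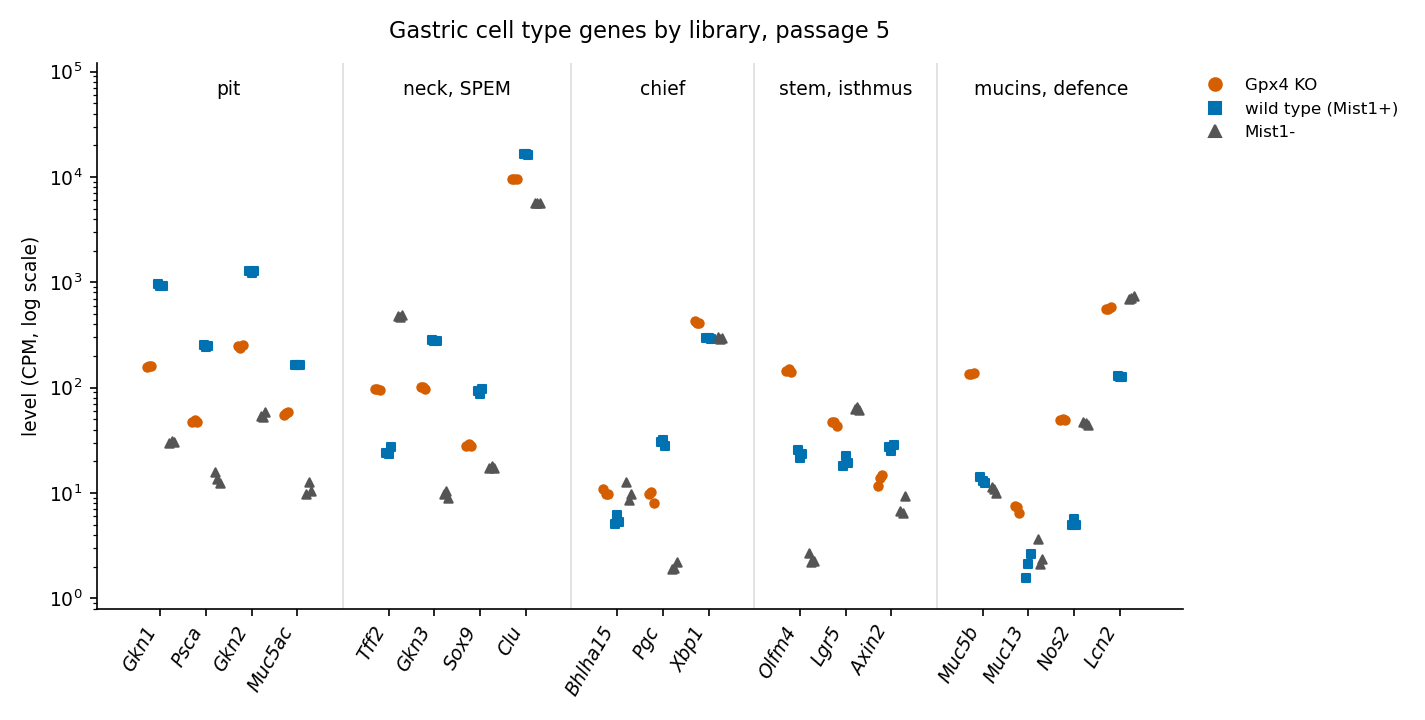
Levels in CPM, on a log axis, of 18 genes of gastric cell types, mucus and defence in each library of knockout (circles), wild-type Mist1+ (squares) and Mist1- (triangles) organoids at passage 5. Pit genes are highest in wild type, lower in knockout and lowest in Mist1-, Olfm4 and Muc5b are highest in knockout, and Nos2 and Lcn2 are high in knockout and Mist1- organoids.

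Mucus genes changed their mix. Of 22 tested, 11 rose and 8 fell, where 25% and 25.7% of all genes did. Muc5b, a gel-forming mucin of the airways, had 135, 134 and 137 CPM in knockout libraries, against 14, 12.8 and 12.4 CPM in wild-type libraries. The knockout libraries were all far above the wild-type ones (log2 3.38 ± 0.055, adjusted p = 6.38e-91), and Muc5b stood at 10.7 CPM in Mist1- organoids. Muc13, a transmembrane mucin, averaged 7.04 ± 0.58 CPM in KO and 2.06 ± 0.52 CPM in WT, and Gcnt3, which branches mucin glycans, 218 ± 2.4 CPM in KO and 393 ± 5.1 CPM in WT. Clca1, a secreted goblet cell protein that processes mucus, had 240.1, 239 and 246 CPM in knockout libraries, against 2153, 2174 and 2149.8 CPM in wild-type libraries, a fall of 8.93-fold (log2 -3.16 ± 0.018, adjusted p = 1.46e-143).

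Defence genes were more often higher than lower. Of 13 tested, 8 rose and 4 fell (median 0.46). Their summed level went the other way, at 10500 to 10672 CPM in knockout libraries and 11766 to 11811 CPM in wild-type libraries. Lcn2, a siderophore-binding protein, had 551, 553 and 581 CPM in knockout libraries, against 127, 124 and 125 CPM in wild-type libraries, log2 2.16 ± 0.025, adjusted p = 1.06e-107. Nos2, the inducible nitric oxide synthase, had 49.2, 50.0 and 49 CPM in knockout libraries, against 4.87, 5.58 and 4.86 CPM in wild-type libraries, log2 3.27 ± 0.088, adjusted p = 4.05e-66. Mist1- organoids had 713 CPM of Lcn2 and 45.8 CPM of Nos2. Dmbt1, a mucosal scavenger receptor, rose (108 ± 0.97 CPM in KO and 61.1 ± 3.3 CPM in WT), and lactoferrin, Ltf, fell (1521 ± 11 CPM in KO and 2123 ± 35 CPM in WT).

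Of 21 NF-kB and cytokine genes, 10 rose and 6 fell, where 25% and 25.7% of all genes did. Icam1, an adhesion molecule for leukocytes, averaged 80.2 ± 3.3 CPM in KO and 32.3 ± 1.1 CPM in WT (log2 1.31 ± 0.052, adjusted p = 1.03e-48), and Il1rn, the interleukin-1 receptor antagonist, 285 ± 7.0 CPM in KO and 595 ± 1.1 CPM in WT (log2 -1.06 ± 0.021, adjusted p = 2.11e-80). The alarmin Il33 averaged 238 ± 7.5 CPM in KO and 624 ± 6.5 CPM in WT. Cxcl5, a neutrophil chemokine, had 3722 ± 59.6 CPM in KO and 3334 ± 39 CPM in WT (log2 0.16, adjusted p = 1.38e-19; adjusted p = 0.0519 with all 21 libraries).

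Interferon response genes were lower where called. Of 14 tested, 0 rose and 12 fell (median -0.33), and they summed to 149 to 154 CPM in knockout and 191 to 203 CPM in wild type. Irf1, an interferon-induced transcription factor, had 49.6, 48.3 and 50.8 CPM in knockout libraries, against 62.4, 64.3 and 60.2 CPM in wild-type libraries, log2 -0.33 ± 0.049, adjusted p = 4.27e-09. Ifi27 averaged 1.27 ± 0.23 CPM in KO and 5.37 ± 0.19 CPM in WT (log2 -2.09 ± 0.22, adjusted p = 8.27e-15). Class I antigen presentation genes split, as 4 rose and 5 fell of 10. H2-K1, a classical class I chain, had 359 ± 5.0 CPM in KO and 216 ± 8.2 CPM in WT (log2 0.73 ± 0.025, adjusted p = 3.33e-55) and H2-T23, a nonclassical one, 67.5 ± 0.56 CPM in KO and 147 ± 1.1 CPM in WT (log2 -1.12 ± 0.037, adjusted p = 6.78e-56). Class I genes are near-identical, so reads may be shared among them.

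Genes of DNA replication and mitosis were higher. Of 30 tested, 26 rose and 2 fell (median 0.41), where 25% and 25.7% of all genes did, and none changed 2-fold. Top2a, the topoisomerase of dividing cells, had 681, 682 and 684 CPM in knockout libraries, against 453, 435 and 442 CPM in wild-type libraries. Every knockout library lay above every wild-type one (log2 0.62 ± 0.020, adjusted p = 2.37e-58). The proliferation antigen Mki67 averaged 725 ± 20.0 CPM in KO and 518 ± 8.7 CPM in WT (log2 0.48 ± 0.020, adjusted p = 2.19e-47). The members that fell were the D-type cyclins of G1 phase, Ccnd1 (731 ± 12 CPM in KO and 1049 ± 1.6 CPM in WT, log2 -0.52 ± 0.017, adjusted p = 1.16e-55) and Ccnd2. Ccnd2 had 1168, 1188 and 1174 CPM in knockout libraries, against 2181, 2222 and 2207 CPM in wild-type libraries, log2 -0.90 ± 0.015, adjusted p = 2.12e-88. Of 7 cyclin kinase inhibitors, 3 rose and 3 fell, with Cdkn2a at 15.5 ± 0.84 CPM in KO and 35.5 ± 1.4 CPM in WT (log2 -1.19 ± 0.075, adjusted p = 5.84e-30) and Cdkn1b at 65.7 ± 0.53 CPM in KO and 53.2 ± 1.3 CPM in WT.

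Targets of p53 fell. Of 22 tested, 1 rose and 18 fell (median -0.55), where 25% and 25.7% of all genes did. Btg2, an antiproliferative gene, had 210.4, 199 and 216 CPM in knockout libraries, against 499.7, 505 and 504 CPM in wild-type libraries, log2 -1.27 ± 0.024, adjusted p = 1.80e-84. Cdkn1a, which encodes the cell cycle inhibitor p21, averaged 91.7 ± 2.7 CPM in KO and 130.0 ± 3.0 CPM in WT (log2 -0.50 ± 0.037, adjusted p = 3.42e-25). Trp53inp1 (124 ± 5.1 CPM in KO and 227 ± 2.2 CPM in WT) and Zmat3 (106 ± 4.3 CPM in KO and 179.6 ± 2.5 CPM in WT), further stress-induced targets, fell by log2 0.88 and 0.76. Many of these genes also respond to other signals.

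The cell cycle gene homology region, taken as TTTGAA on either strand, was in the promoters of 9 of 23 matched cell cycle genes (39.1%) and of 20.2% of all genes. The 250 bases before the starts of Top2a (chr11:99024190-99024439, minus strand) and Mki67 (chr7:135716380-135716629, minus strand) in GRCm38.p6 are shown because both rose and both hold the letters more than once, in capitals.
Top2a: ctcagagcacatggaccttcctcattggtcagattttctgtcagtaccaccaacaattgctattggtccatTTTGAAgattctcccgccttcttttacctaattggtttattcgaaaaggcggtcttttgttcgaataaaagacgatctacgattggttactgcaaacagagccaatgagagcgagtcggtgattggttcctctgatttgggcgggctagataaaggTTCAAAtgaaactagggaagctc
Mki67: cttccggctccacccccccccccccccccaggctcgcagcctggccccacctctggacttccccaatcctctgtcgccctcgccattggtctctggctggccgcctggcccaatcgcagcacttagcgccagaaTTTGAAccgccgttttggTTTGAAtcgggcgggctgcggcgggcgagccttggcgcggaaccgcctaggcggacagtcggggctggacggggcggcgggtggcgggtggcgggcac

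Endoplasmic reticulum chaperones rose together. They fold secreted proteins and are induced by the unfolded protein response through ATF6 and XBP1. Of 20 genes tested, 18 rose and 0 fell (median 0.26), where 25% and 25.7% of all genes did. Hspa5, which encodes the chaperone BiP, had 1808, 1787 and 1803 CPM in knockout libraries, against 1293, 1311 and 1290.4 CPM in wild-type libraries (log2 0.47 ± 0.016, adjusted p = 1.66e-56). Hsp90b1, its partner GRP94, had 1866, 1863 and 1883 CPM in knockout libraries, against 1397, 1343 and 1367 CPM in wild-type libraries (log2 0.45 ± 0.016, adjusted p = 4.02e-54). These were the largest gains in CPM among called protein-coding genes. Manf, a secreted reticulum factor, averaged 211 ± 4.5 CPM in KO and 137 ± 6.1 CPM in WT (log2 0.62 ± 0.030, adjusted p = 1.03e-39). In Mist1- organoids Hspa5 stood at 1701 CPM and Hsp90b1 at 1785 CPM.

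The endoplasmic reticulum stress element, CCAAT and CCACG parted by 9 bases on either strand, was in 7 of 17 matched promoters of these genes (41.2%), and in 0.137% of all. It is shown in capitals in the 250 bases before the starts of Hspa5 (chr2:34771840-34772089, plus strand) and Hsp90b1 (chr10:86705445-86705694, minus strand), build GRCm38.p6, the pair with the largest gains. The element lies 65 bases before the Hspa5 start.
Hspa5: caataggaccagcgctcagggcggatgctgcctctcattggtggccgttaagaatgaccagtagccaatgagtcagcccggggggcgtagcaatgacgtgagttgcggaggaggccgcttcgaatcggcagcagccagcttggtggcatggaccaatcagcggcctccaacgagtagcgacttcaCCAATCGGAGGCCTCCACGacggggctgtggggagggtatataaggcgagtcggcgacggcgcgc
Hsp90b1: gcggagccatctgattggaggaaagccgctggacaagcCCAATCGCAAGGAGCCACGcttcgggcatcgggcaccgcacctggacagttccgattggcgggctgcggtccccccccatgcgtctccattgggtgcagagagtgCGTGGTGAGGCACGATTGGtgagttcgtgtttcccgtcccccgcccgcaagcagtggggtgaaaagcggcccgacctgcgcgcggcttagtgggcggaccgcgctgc

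Of 18 genes of the integrated stress response, 10 rose and 5 fell. Shmt2, a mitochondrial serine enzyme, rose (103 ± 1.6 CPM in KO and 71.3 ± 2.5 CPM in WT, log2 0.53 ± 0.041, adjusted p = 3.09e-23), as did the stress transcription factor Atf3 (60.2 ± 1.8 CPM in KO and 38.9 ± 2.1 CPM in WT). Ddit4, an inhibitor of mTORC1, had 35.9, 37 and 34.8 CPM in knockout libraries, against 101, 93.7 and 101 CPM in wild-type libraries, log2 -1.45 ± 0.048, adjusted p = 5.74e-57, and Sesn2, another such inhibitor and a p53 target, averaged 23 ± 1.5 CPM in KO and 41.7 ± 1.3 CPM in WT. Of 17 genes of glycolysis and the hypoxia response, 13 rose and 4 fell (median 0.21), with enolase Eno1 at 1395 ± 9.7 CPM in KO and 1059 ± 21 CPM in WT, phosphofructokinase Pfkp at 387 ± 7.8 CPM in KO and 269.7 ± 5.1 CPM in WT, and Bnip3, a mitophagy receptor, at 186 ± 4.2 CPM in KO and 113 ± 0.38 CPM in WT. Of 19 immediate early and heat shock genes, 10 rose and 4 fell, including Hsph1, a cochaperone (237 ± 6.0 CPM in KO and 163 ± 8.5 CPM in WT), and Ier3, an early response gene that fell (126 ± 2.7 CPM in KO and 201 ± 3.1 CPM in WT).

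**Figure D3:**
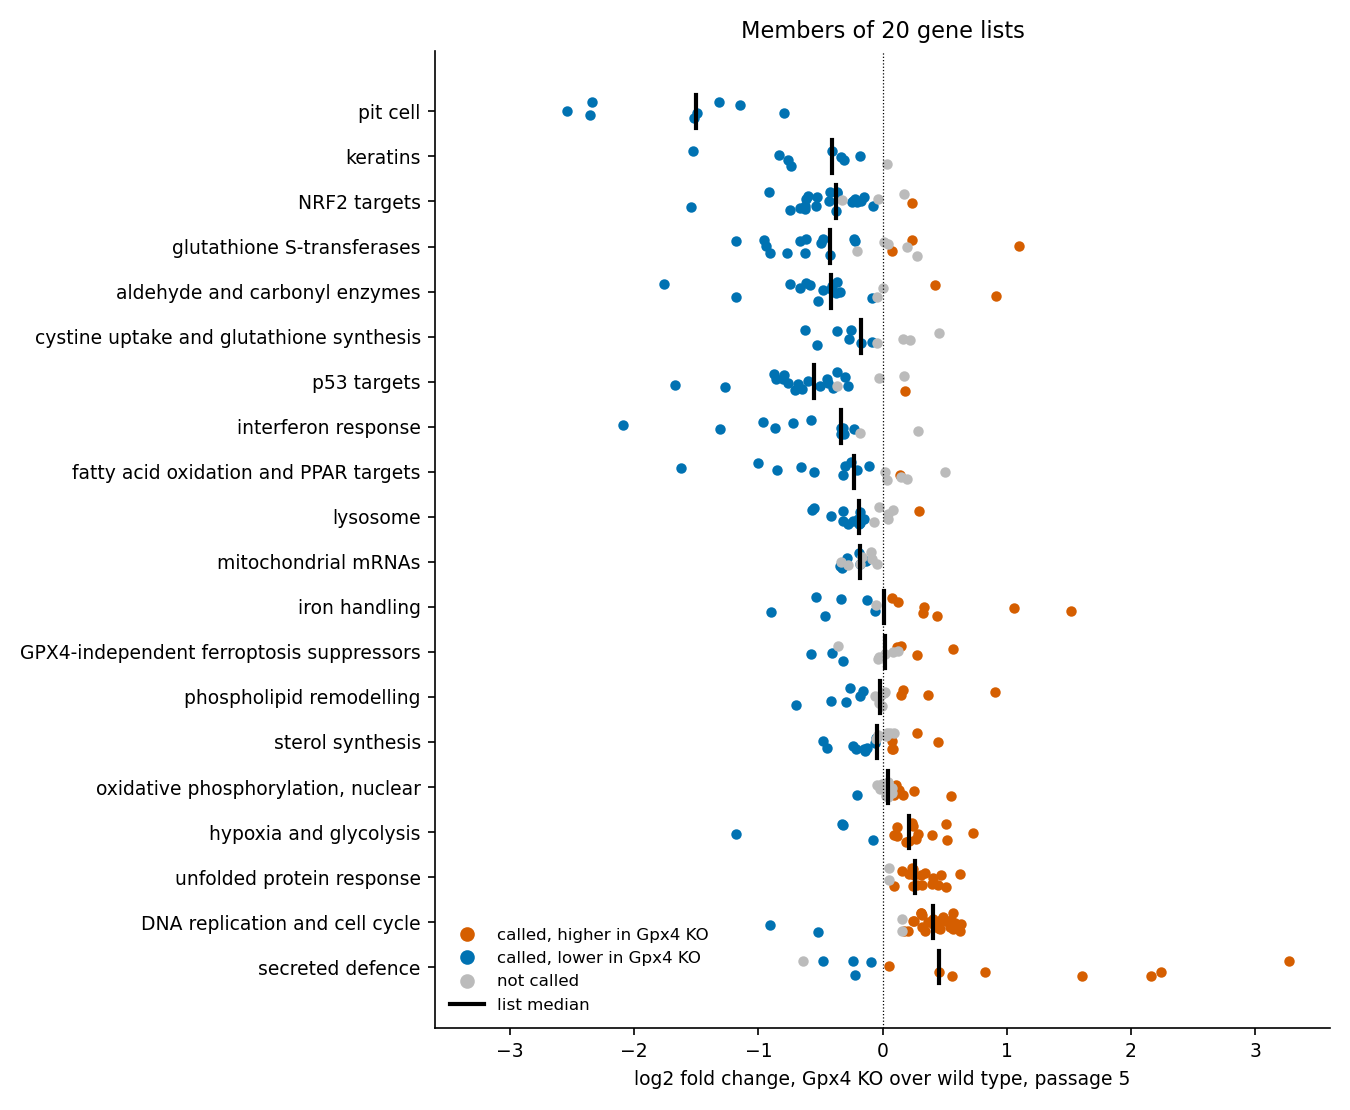
Log2 fold change of knockout over wild type for each tested member of 20 gene lists, coloured by call, with the list median as a black bar. Pit cell genes lie lowest, and most NRF2 and p53 targets lie left of 0. Unfolded protein response and cell cycle genes lie right of 0 except for the D-type cyclins.

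Lipid metabolism showed small changes with a few large ones. Of 20 sterol synthesis genes, 5 rose and 9 fell, with Sc5d, a desaturase of the late pathway, lower (204 ± 4.2 CPM in KO and 284 ± 3.1 CPM in WT). Of 10 fatty acid synthesis genes, 4 rose and 4 fell. Of 16 fatty acid oxidation genes and PPAR targets, 1 rose and 10 fell (median -0.23). Pparg, the nuclear receptor itself, had 19.8, 20.1 and 21.8 CPM in knockout libraries, against 63.1, 62.6 and 63.3 CPM in wild-type libraries, log2 -1.62 ± 0.060, adjusted p = 1.90e-51.

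Nuclear respiratory chain genes differed little, and messages of the mitochondrial genome were lower or not called. Of 21 nuclear subunit genes, 8 rose and 1 fell (median 0.044), and Atp5b, an ATP synthase subunit, averaged 1465 ± 10.0 CPM in KO and 1227 ± 0.47 CPM in WT. Of 13 messages of the mitochondrial genome, 0 rose and 6 fell (median -0.18). Their sum was 39871 to 43063 CPM in KO and 48759.6 to 49526 CPM in WT. mt-Co1, a cytochrome oxidase subunit, had 16571, 16559 and 17549.9 CPM in knockout libraries, against 21357, 21395 and 21412 CPM in wild-type libraries, log2 -0.34 ± 0.017, adjusted p = 1.66e-11.

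Of 18 lysosome genes, 1 rose and 12 fell (median -0.19). Ctsd, the aspartic protease of lysosomes, had 529, 507 and 523 CPM in knockout libraries, against 767, 783 and 734 CPM in wild-type libraries, log2 -0.55 ± 0.020, adjusted p = 7.78e-50, while the cysteine protease Ctsl rose (289 ± 1.7 CPM in KO and 236 ± 5.7 CPM in WT). Of 80 cytosolic ribosomal protein genes, 31 rose and 7 fell, with a median of 0.036.

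Developmental signalling genes changed one by one. Shh, the hedgehog ligand, had 0.44, 0.468 and 0.0601 CPM in knockout libraries, against 3.74, 4.81 and 4.12 CPM in wild-type libraries, log2 -3.64 ± 0.33, adjusted p = 4.91e-19, and the hedgehog transducer Smo had 11.9 ± 0.98 CPM in KO and 4.49 ± 0.28 CPM in WT (log2 1.40 ± 0.13, adjusted p = 1.68e-17). Of 17 hedgehog and BMP genes, 2 rose and 7 fell, with the BMP response genes Id1 (27.2 ± 3.7 CPM in KO and 50.6 ± 2.8 CPM in WT) and Id2 (70.0 ± 2.8 CPM in KO and 103 ± 2.9 CPM in WT) among those that fell. Of 12 Wnt genes, 3 rose and 5 fell, with the ligands Wnt10a at 5.79 ± 0.45 CPM in KO and 14.4 ± 1.3 CPM in WT and Wnt7b at 53.3 ± 1.1 CPM in KO and 34.5 ± 4.1 CPM in WT. Of 10 Notch genes, 3 rose and 2 fell, where the ligand Dll1 had 10.1, 8 and 8.83 CPM in knockout libraries, against 2.27, 2.02 and 2.5 CPM in wild-type libraries (log2 1.98 ± 0.17, adjusted p = 2.86e-20) and the target Hes1 had 45.5 ± 1.9 CPM in KO and 82.2 ± 5.1 CPM in WT (log2 -0.85 ± 0.048, adjusted p = 4.11e-34). Of 17 EGF receptor ligands, receptors and targets, 3 rose and 6 fell. The ligands Btc (26.2 ± 2.1 CPM in KO and 49.9 ± 3.8 CPM in WT) and Areg (21.5 ± 0.54 CPM in KO and 37.6 ± 2.8 CPM in WT) and the feedback phosphatase Dusp6 (103 ± 6.6 CPM in KO and 162 ± 1.9 CPM in WT) fell.

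Of 18 YAP target and regenerative genes, 6 rose and 11 fell (median -0.31). Msln, mesothelin, had 1196, 1177 and 1155 CPM in knockout libraries, against 2405, 2411 and 2400.0 CPM in wild-type libraries, log2 -1.03 ± 0.015, adjusted p = 6.33e-95. Of 33 gastric and intestinal transcription factors tested, 9 rose and 16 fell. Elf3, an epithelial ETS factor, averaged 278 ± 0.17 CPM in KO and 436 ± 8.0 CPM in WT and the zinc finger factor Klf6 296 ± 6.7 CPM in KO and 178 ± 0.49 CPM in WT. Of 7 claudins, 4 rose and 1 fell. Cldn3, a tight junction protein of the intestine, had 16.2, 14.7 and 17.4 CPM in knockout libraries, against 3.07, 1.6 and 1.15 CPM in wild-type libraries, log2 3.04 ± 0.16, adjusted p = 8.22e-32. Of 21 collagens, laminins and integrins, 4 rose and 9 fell, with the collagen gene Col18a1 at 141 ± 5.8 CPM in KO and 282 ± 8.1 CPM in WT.

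Fold changes were ranked among called, named protein-coding genes with at least 10 CPM in the higher group and no overlap of libraries. The highest were Slc22a29, Pitx1, Smoc1, Gabrp, Muc5b, Nos2, B3gnt7, Rassf4, Cldn3 and Pxdn. Pitx1, a homeobox factor of hindlimb and pituitary development, had 25.8, 27.1 and 28.1 CPM in knockout libraries, against 0, 0.0698 and 0.135 CPM in wild-type libraries, a ratio of 397 with a 95% counting interval of 136 to 1928 on 3 counts in wild type. Gabrp, a GABA receptor subunit of mucosal epithelia, had 258, 261 and 270.2 CPM in knockout libraries, against 22.4, 19.8 and 23.6 CPM in wild-type libraries, log2 3.58 ± 0.042, adjusted p = 6.36e-107. Mist1- organoids had 39.7 CPM of Pitx1 and 176 CPM of Gabrp, on the knockout side of wild type.

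Others among the highest were low in both wild-type and Mist1- organoids. Smoc1, a secreted matricellular protein, had 21.9, 21 and 23 CPM in knockout libraries, against 0.801, 1.19 and 1.08 CPM in wild-type libraries, log2 4.42 ± 0.16, adjusted p = 1.62e-52, and 0.546 CPM in Mist1-. B3gnt7, which extends keratan sulfate chains, had 32.9 ± 2.4 CPM in KO and 3.65 ± 0.31 CPM in WT and 1.21 CPM in Mist1-. Pxdn, which crosslinks collagen IV, had 12.9 ± 0.88 CPM in KO and 1.63 ± 0.34 CPM in WT and 1.83 CPM in Mist1-.

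In the same ranking, with at least 10 CPM in the higher group, the lowest were Prl2c3, Prl2c2, Pnliprp2, Rec8, Cdhr2, Zfp991, Mgat4c, Lypd8l, Rpl29 and Slco2a1. Cdhr2, a protocadherin of brush border microvilli, had 16.6, 16.1 and 18.3 CPM in knockout libraries, against 207, 213 and 205 CPM in wild-type libraries, log2 -3.62 ± 0.046, adjusted p = 4.36e-103. Rec8, the meiotic cohesin subunit, had 0.99, 1.4 and 0.781 CPM in knockout libraries, against 26.7, 32 and 26.9 CPM in wild-type libraries, log2 -4.72 ± 0.15, adjusted p = 1.99e-59. Slco2a1, a prostaglandin transporter, averaged 2.41 ± 0.44 CPM in KO and 25.4 ± 0.48 CPM in WT, and Pnliprp2, a pancreatic lipase relative, 0.448 ± 0.25 CPM in KO and 12 ± 1.8 CPM in WT. Prl2c2 and Prl2c3 are near-identical copies of the proliferin gene, with 0.345 ± 0.14 CPM in KO and 14.9 ± 1.7 CPM in WT for Prl2c2 and 0.287 ± 0.21 CPM in KO and 13.2 ± 0.59 CPM in WT for Prl2c3, and reads cannot be told apart between them with certainty.

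Rpl29, a ribosomal protein gene, had 21.3, 21.9 and 25.8 CPM in knockout libraries, against 266, 275 and 259 CPM in wild-type libraries, log2 -3.54 ± 0.042, adjusted p = 6.62e-99. Its copies with Rpl29-ps names together added under 1 CPM, as gene and copies summed to 23.2 CPM in knockout and 267 CPM in wild type. Copies under other names were not looked for, so reads placed on them are not covered by this sum. Mist1- organoids had 314 CPM. Rpsa, another ribosomal gene and among the largest gains, had 1151 ± 9.3 CPM in KO and 702 ± 7.4 CPM in WT. Its copy Rpsa-ps10 had 24.7 ± 2.6 CPM in KO and 297 ± 15 CPM in WT. Rpsa and its copies with Rpsa-ps names summed to 1234 CPM in KO and 1061 CPM in WT. Reads of such copies are uncertain.

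Some genes had no counts in one group. Slc22a29, an organic anion transporter gene of a multicopy family, had 13, 12.8 and 12.9 CPM in knockout libraries, against 0, 0 and 0 CPM in wild-type libraries, at least 189.6-fold higher by a floor of 3 counts over the group. Mist1- libraries also had 0 counts of it. With 0 counts in all knockout libraries, Tfap2a, an ectodermal transcription factor, was at least 105-fold lower, Capn11 77.2-fold, Ccnb1ip1 50.7-fold, Gbp2b 41.3-fold and Xlr3a 36.4-fold. Their wild-type means were 5.8, 4.28, 2.81, 2.28 and 2.02 CPM. Gbp2b and Xlr3a also belong to families of near-identical copies. These bounds cover counting error only. In all, 14 genes of any type with at least 30 counts on one side had 0 on the other, 4 with counts in knockout and 10 in wild type.

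Differences were spread over the genome. Over the autosomes and the X chromosome, 46.9% to 56.3% of genes tested were called per chromosome, and medians ran from -0.045 to 0.0502. Of 173 genes within 5 Mb of Gpx4, which lies on chromosome 10, 46.2% were called and 4.62% changed 2-fold, beside 50.7% and 6.53% of all. Of 11 imprinted genes, 4 rose and 3 fell.

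At later passages the genes that differed 2-fold at passage 5 were set beside the same comparison in other libraries. Of the 907, 819 were tested at passage 10, where 628 were called in the same direction, 16 in the opposite one and 175 not, in a fit that called 54.1% of genes. At passage 15, 760 were tested, 290 were called in the same direction and 110 in the opposite one, in a fit that called 19.7% of genes and whose wild-type libraries varied more. Gpx4 averaged 95.4 CPM in knockout and 117 CPM in wild type at passage 10 (log2 -0.29, adjusted p = 7.28e-09), and 85.9 CPM in knockout and 142 CPM in wild type at passage 15 (log2 -0.72, adjusted p = 0.0564).

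Single genes behaved differently over passages. Rpl29 stayed low in knockout, at 24.6 and 23.2 CPM at passages 10 and 15, against 248 and 459.7 CPM in wild type. Slc22a29 was found in knockout at 5.09 and 19.8 CPM, against 0 and 0.024 CPM in wild type. Gkn1, in contrast, averaged 349 CPM in knockout and 1366 CPM in wild type at passage 10, then 780.4 CPM in knockout and 186 CPM in wild type at passage 15 (log2 2.08). Nqo1 was 17.3 CPM in knockout and 40.8 CPM in wild type at passage 10, and 16.8 CPM in knockout and 18.9 CPM in wild type at passage 15, where it was not called (adjusted p = 0.323). Mboat2 remained higher in knockout at both, with log2 1.35 and 1.95.

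**Figure D4:**
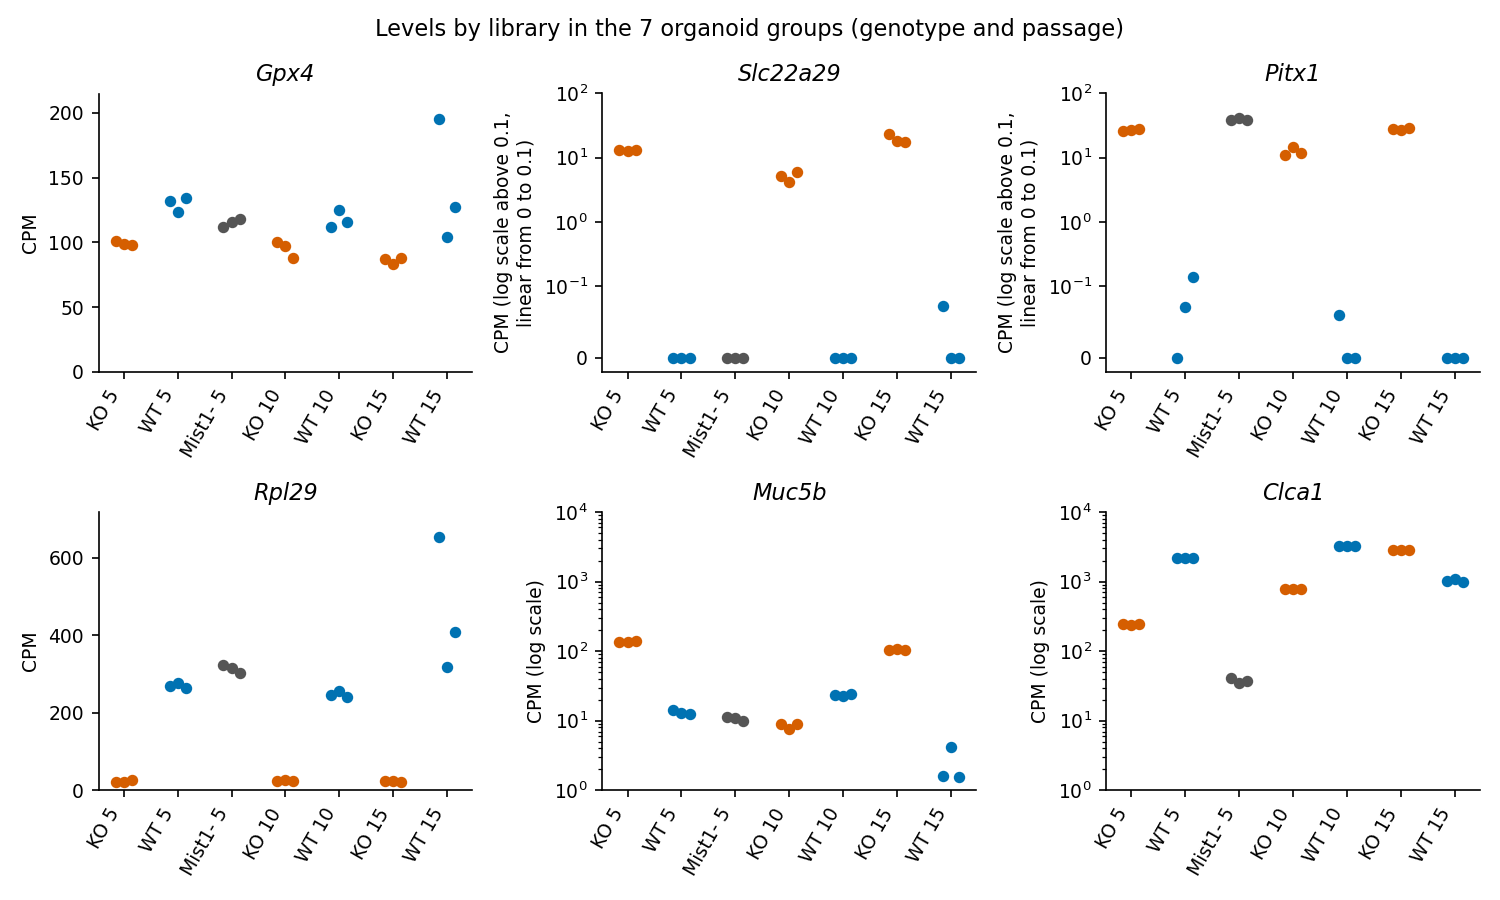
Levels in CPM by library of 6 genes in the 7 organoid groups, knockout in orange, wild type in blue and Mist1- in grey, with the passage after the group name. Axes are linear for Gpx4 and Rpl29, log for Muc5b and Clca1, and log above 0.1 CPM for Slc22a29 and Pitx1. Rpl29, Slc22a29 and Pitx1 keep their difference at every passage, while Muc5b and Clca1 change sides.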

How the data were processed

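Counts per gene for 56691 genes in 21 libraries were deposited by the authors without normalization, with FPKM that the authors computed from them by exonic length and library total. The tools named, per the submitters' processing notes, are HTSeq 0.6.1, HISAT2 2.2.1 and cutadapt 1.9.1, and the genome build is GRCm38.p5. Whether counting used strand is not given in the sources used here, so overlapping antisense genes are uncertain. The table's gene coordinates differ from those of GRCm38.p6, so only their chromosomes and distances were used.

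The 6 libraries were fitted alone in edgeR 4.0.16 (R 4.3.3) with TMM scaling, filterByExpr (minimum count 10, minimum total 15) and the robust quasi-likelihood F-test, because wild-type passage 15 libraries vary more than the others. The 13882 genes tested hold 99.9% of counts. Adjusted p is by Benjamini-Hochberg over these genes, called under 0.05, and the SE is the absolute log2 fold change over the square root of F. Replicates differed by more than counting noise (chi-square per degree of freedom 1.7 to 2.06). On simulated data for this comparison, over 13882 genes, the code recovered 64%, 72%, 86% and 100% of genes changed 1.2-, 1.5-, 2- and 4-fold, and 3.59% of calls were false. Only 50 genes were changed at each fold, far fewer than the 7035 called in the real data. These shares therefore need not hold for the real comparison.

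The samples and the 56 gene lists were chosen with earlier results of these data known. Genes are named by rule, namely Gpx4 and Bhlha15, 10 called protein-coding genes from each end of the fold changes with a standard symbol, at least 10 CPM in the higher group and libraries that do not overlap, the 6 largest changes in CPM each way, up to 4 members of each list by smallest adjusted p, all members with a count of the 4 lists of glutathione peroxidases, GPX4-independent ferroptosis genes, glutathione synthesis and sex-linked genes, and genes at 0 counts in a group with at least 1 CPM in each library of the other. Alternatives were median-ratio scaling, library totals, filters, fits of all 21 or 18 libraries, DESeq2 1.42.0, a 1.2-fold threshold in glmTreat, limma 3.58.1 on log2(FPKM + 1) and log2(FPKM + 0.1), the replicate block and each library left out. The same fit at passages 10 and 15 was added after the data were seen. Intervals and floors cover counting error only. Promoters are from RefSeq. Some genes that the rule names are not reported here.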

Additional observations from a re-analysis of the deposited data

Results flagged for a closer look

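Bhlha15, the genes ranked highest and lowest by fold change at passage 5, and Gkn1, Clca1, Nqo1 and Mboat2 were looked up at passages 10 and 15. Of these genes, 6 had every knockout library on the opposite side of every wild-type library at 1 of these passages. The difference between passages was not tested in any of them. Every knockout library was above every wild-type library for Bhlha15 at passage 5 and below at passage 10, where it did not pass the test, at 5.8 CPM in KO and 6.84 CPM in WT (log2 -0.227, adjusted p = 0.179). At passage 15 it had 11.1 CPM in KO and 2.66 CPM in WT (adjusted p = 1.97e-04). Muc5b, higher at passage 5, was lower at passage 10, at 8.53 CPM in KO and 23.3 CPM in WT (log2 -1.428, adjusted p = 7.22e-25), and at passage 15 it had 104 CPM in KO and 2.42 CPM in WT. Cldn3, higher at passage 5, was lower at passage 15, at 6.29 CPM in KO and 52.3 CPM in WT (log2 -3.048, adjusted p = 4.75e-04). Lypd8l, lower at passage 5, was higher at passage 15, at 37.4 CPM in KO and 15.5 CPM in WT (log2 1.276, adjusted p = 1.41e-04). Gkn1 and Clca1, lower at passage 5, were higher at passage 15. Gkn1 had 780.4 CPM in KO and 186 CPM in WT (log2 2.075, adjusted p = 6.78e-04), and Clca1 had 2838 CPM in KO and 1032 CPM in WT (log2 1.462, adjusted p = 6.50e-05). Outside the genes looked up, others higher at passage 5 were lower later. Pdpn, Gpx8 and Ptgs2 were so at passage 15 (log2 -4.27, -3.02 and -1.36, adjusted p = 9.87e-04, 2.10e-04 and 0.014). Olfm4 and Muc13 were so at passage 10 (log2 -0.29 and -2.21, adjusted p = 1.21e-04 and 8.37e-15). These are examples, as later passages are not given for most genes.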

How the results depend on the processing

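Beside 7035 genes called, the fit of all 21 libraries called 4547 and a 1.2-fold threshold 2685, and leaving out each library gave 6510 to 6658. Beside 907 genes called at 2-fold or more, a mean FPKM of at least 1 gave 591 and limma on log2(FPKM + 1), whose pseudocount shrinks low genes, 245, and leaving out each library gave 972 to 1016. The other alternatives gave 5919 (DESeq2) to 7610 (library totals) calls, and 660 to 1186 at 2-fold or more. Gpx4 stayed lower and called in all, at log2 -0.41 to -0.29, with an adjusted p of up to 0.0362. Of 232 other named genes with a test, 174 kept direction and side of the threshold throughout, 58 did not in at least 1 alternative, and none reversed. Of 54 list medians, 39 kept their sign and 15 changed it in at least 1 alternative, 13 of them under 0.1 in size. The medians of the parietal and imprinted lists turned under the FPKM filter, which leaves fewer members. Same-numbered libraries did not deviate together (correlations -0.0113, -0.011 and 0.0047 over 11123 genes). With 3 libraries per group that vary little, this cannot show whether same-numbered libraries shared a culture, day or batch. The replicate block gave 7020 calls and 903 at 2-fold or more. Genes under about 1 CPM rest on few counts. The cause of other shifts was not tested.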

Other observations

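Of 8 enteroendocrine genes, 1 had enough counts for a test. Ghrl, which encodes the hormone ghrelin, averaged 0.525 ± 0.31 CPM in KO and 1.36 ± 0.21 CPM in WT (log2 -1.38 ± 0.40, adjusted p = 0.00192). Its call was lost without knockout library 2 (log2 -0.97, adjusted p = 0.0507). Gast, Sst, Chgb, Neurog3 and Neurod1 had 0 counts in all 6 libraries. Of 6 tuft cell genes, 2 were tested and both fell. Trpm5, a cation channel of taste and tuft cells, averaged 1.03 ± 0.17 CPM in KO and 2.51 ± 0.30 CPM in WT (log2 -1.28 ± 0.29, adjusted p = 9.47e-05), and Avil, which encodes the actin-binding protein advillin, averaged 144 ± 3.2 CPM in KO and 249 ± 3.5 CPM in WT (log2 -0.79 ± 0.028, adjusted p = 1.13e-52). The tuft cell genes Pou2f3 and Il25 had 0 counts.

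Of 10 squamous genes, 3 were tested, of which 1 rose and 1 fell. Pdpn, which encodes the membrane glycoprotein podoplanin, had 9.13, 8.73 and 6.97 CPM in knockout libraries, against 0.134, 0.0698 and 0.405 CPM in wild-type libraries, a log2 fold change of 5.30 ± 0.30, adjusted p = 2.78e-34. Its knockout libraries were all far above the wild-type ones at passage 5 but not later. At passage 10 Pdpn had 0.104 CPM in KO and 0.453 CPM in WT and was not tested. At passage 15 it was lower, at 0.218 CPM in KO and 4.34 CPM in WT (log2 -4.27, adjusted p = 9.87e-04). Krt4, a keratin of stratified epithelium, averaged 6.1 ± 0.073 CPM in KO and 10.9 ± 1.2 CPM in WT (log2 -0.83 ± 0.13, adjusted p = 1.05e-08). The squamous markers Krt5, Krt14 and Trp63 summed to 1 count each over the knockout libraries, against 4, 0 and 0 counts over the wild-type libraries.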
